A study of Mus musculus with 12 samples.

Results

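Gene expression in plucked skin was compared between younger mice in which Sox4 was knocked out conditionally in skin (cKO) and wildtype (WT) mice of similar age. The 6 mice were those whose titles carry Exp 2, out of 12 mice in the series, and were taken by that label alone. Exp 2 held WT mice 4, 5 and 6, which were 20, 19 and 18 weeks old, and cKO mice 1, 3 and 4, which were 17, 18 and 16 weeks old. All were males of a mixed C57Bl6/129Sv background (75:25), and skin was taken 12 days after hairs were plucked, with 1 array per mouse. The study set out to learn how Sox4 takes part in hair regeneration after plucking and in switching on follicle stem cells. The other 6 mice, Exp 1, had the same genotypes and treatment at 68 to 72 weeks of age, and are used below as mice in which an Exp 2 result can be looked up. Neither the promoter nor the cell type that drives the deletion is named in the labels, and all WT mice are described only as wildtype.

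Sox4 is a transcription factor of the SoxC family, whose members bind DNA through an HMG box and act in progenitor cells of many developing tissues, the hair follicle among them. Hair follicles cycle through growth (anagen), regression (catagen) and rest (telogen). Plucking resting hairs starts a new growth phase in which follicle stem cells divide, matrix cells proliferate above the dermal papilla, and their descendants build the hair shaft and inner root sheath.

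Levels are log2 processed signal minus the 75th percentile of the same array, so 0 marks the 75th percentile, and differences are cKO minus WT on that log2 scale with the SE of the fit. On the 6 arrays the share of probes well above background was 58.6% to 62.6%. All 14 hair shaft keratins and all 15 basal keratinocyte genes that were tested were well above background on all 6 arrays. Skeletal muscle RNA set 1 mouse apart. The mean level of 22 muscle genes was -1.13 in WT mouse 5 and between 4.13 and 5.36 in the other 5. A tag in the array names, which the labels do not explain, is P2 for all WT and P1 for all cKO mice of Exp 2, so tag and genotype cannot be told apart within Exp 2. The labels name separate mice. The cKO mice were on average younger than the WT mice, and cKO mouse 3 was alone on its slide.

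The targeted gene was examined first. Sox4 (NM_009238) stood at 2.16, 2.43 and 2.15 in WT mice 4, 5 and 6 and at -3.05, -2.55 and -2.82 in cKO mice 1, 3 and 4. Every cKO mouse was thus far below every WT mouse, and the lowest WT and highest cKO levels were separated by more than the range of either group. The means were 2.25 ± 0.16 and -2.81 ± 0.25 (SD, n = 3 and 3), a difference of -5.05 (SE 0.17, 95% interval -5.42 to -4.68, adjusted p = 3.34e-07 in limma), or 33.2-fold lower. An exact two-sided permutation test gave p = 0.1, the smallest that 3 against 3 mice allow. The probe was still well above background in all 3 cKO mice. A second probe differed by -6.68. Where the deleted sequence lies relative to these probes is not stated in the labels. In whole skin, fewer cells of a type and less RNA per cell cannot be told apart, here and for the genes that follow.

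Across all 16179 genes tested, few differences passed the threshold. Limma called 10 genes (0.0618%) at an adjusted p under 0.05, of which 9 (0.0556%) fell in cKO skin and 1 (0.00618%), Timd4, was higher. Timd4 entered the test only through the group in which it is high, so its call had to follow a difference and adds no support of its own. At an unadjusted p under 0.05 there were 755 genes (4.67%), with 543 lower (3.36%) and 212 higher (1.31%). The median difference over all genes was -0.06, and 64% of genes were on the negative side, so small negative values are the background against which gene groups are read. Scaling each array to its median moved that background to -0.21, with 6 genes called. The 3 mice of each genotype did not overlap for 1599 genes that were lower in cKO (9.88%) and 439 that were higher (2.71%). All 10 called genes were among them. Without overlap the direction within slide 1 and within slide 2 is fixed in advance, so its agreement in all 10 adds no support.

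The number of calls moved with single mice and settings, while the direction of the 10 genes did not in any of the 28 alternatives run. Many of these could not have changed it. Leaving out an older mouse does not alter the younger difference. Leaving out a younger mouse, fitting within a slide or using Exp 2 arrays only cannot reverse a gene without overlap. Without WT mouse 5 there were 2 calls, Sox4 and Mex3a, and 2 were also called when the fit held a term for that tag. Leaving out older WT mouse 3, WT mouse 4 or cKO mouse 1 gave 2 calls each, leaving out cKO mouse 3 gave 3 and leaving out cKO mouse 4 gave 4. Leaving out older WT mouse 2 or older cKO mouse 6 gave 5 each, older WT mouse 1 gave 6, and older cKO mouse 5 gave 21. Sox4 kept its call in 28 of the 28 alternatives and Mex3a in 27, followed by Tes in 15, Tead2 in 13 and Zfp422 in 10. Spink12, Gm4907 and Plppr3 kept theirs in 8 each, Timd4 in 7 and Cldn7 in 5.

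**Figure D1:**
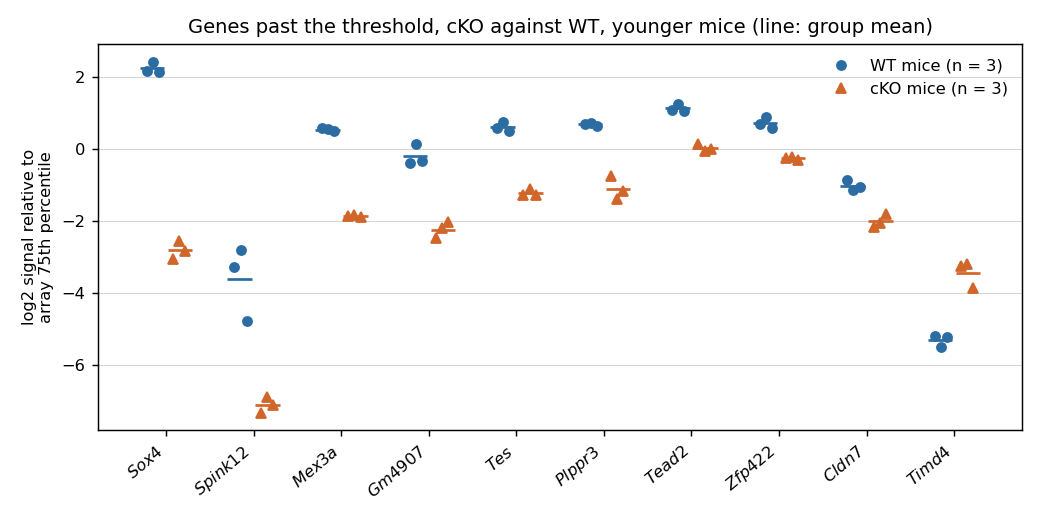
Log2 signal relative to the array's 75th percentile (vertical axis) of the 10 genes past the threshold, with 1 point per mouse (circles WT, triangles cKO, n = 3 each) and a line at each group mean. In all 10 genes the points of the genotypes do not overlap, with Timd4 the gene that is higher in cKO. The distance between group means is largest for Sox4, at 5.05.

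Besides Sox4, the called genes above background in both genotypes are taken up 1 by 1. Mex3a, which encodes an RNA-binding protein that controls mRNA in stem and progenitor cells, stood at 0.58, 0.55 and 0.49 in WT mice 4, 5 and 6 and at -1.86, -1.83 and -1.88 in cKO mice 1, 3 and 4. Within each genotype the mice were nearly equal, with SDs of 0.04 and 0.02. Mex3a fell by 2.39 (SE 0.15, adjusted p = 1.03e-04 in limma), or 5.25-fold. Tead2, the transcription factor through which the Hippo coactivators Yap1 and Wwtr1 can reach DNA, was at 1.08, 1.24 and 1.06 in WT mice and at 0.13, -0.06 and 0.01 in cKO mice. The Tead2 groups lay apart, and the gene fell (difference -1.10, SE 0.13, adjusted p = 0.0238 in limma), or 2.15-fold, with -1.14 at a second probe. Zfp422, a zinc finger protein gene, was at 0.70, 0.88 and 0.58 in WT mice and at -0.24, -0.21 and -0.31 in cKO mice. Its lowest WT mouse was above its highest cKO mouse, and Zfp422 fell by 0.97 (SE 0.12, adjusted p = 0.0268 in limma).

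Tes encodes testin, a LIM domain protein of focal adhesions and cell contacts. It was at 0.58, 0.75 and 0.51 in WT mice 4, 5 and 6 and at -1.27, -1.11 and -1.27 in cKO mice 1, 3 and 4. No Tes level overlapped between genotypes, and the gene fell by 1.83 (SE 0.21, adjusted p = 0.0238 in limma), or 3.55-fold. Cldn7 encodes a claudin of epithelial tight junctions. Its levels were -0.87, -1.15 and -1.07 in WT mice and -2.16, -2.05 and -1.80 in cKO mice, a fall of 0.97 (SE 0.14, adjusted p = 0.0444 in limma). Of the called genes, Cldn7 lay nearest to the threshold. Plppr3, a membrane protein of the lipid phosphatase-related family best known from neurons, was at 0.70, 0.72 and 0.64 in WT mice and at -0.74, -1.40 and -1.16 in cKO mice. Plppr3 fell by 1.78 (SE 0.24, adjusted p = 0.0414 in limma), but a second probe of the gene differed by 0.77, in the opposite direction.

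The remaining called genes were not well above background in 1 genotype, or carry only an identifier. Spink12, of the Kazal-type serine protease inhibitors, was at -3.28, -2.80 and -4.78 in WT mice 4, 5 and 6 and at -7.32, -6.89 and -7.11 in cKO mice 1, 3 and 4. It was not well above background in any cKO mouse and was at least 2.67-fold lower there (fitted difference -3.49, SE 0.48, adjusted p = 0.0430 in limma). Spink12 was well above background in the 3 younger and 1 older WT mice and in no cKO mouse, so it too passed the filter only through WT, where it is high. Timd4, a phosphatidylserine receptor through which macrophages take up dying cells, was the single gene called higher. It was at -5.20, -5.49 and -5.21 in WT mice and at -3.24, -3.20 and -3.86 in cKO mice. No WT mouse was well above background, which makes the difference at least 3.22-fold (fitted difference 1.87, SE 0.24, adjusted p = 0.0331 in limma). Timd4 was well above background on the 3 cKO arrays of Exp 2 and on no other of the 12, so its p-value is no evidence beyond those levels. Levels of 11 macrophage genes are given with the other immune genes below, and their part in the Timd4 difference was not tested. Gm4907, named after its values were seen because the naming rule leaves out identifiers, fell by 2.04 (SE 0.27, adjusted p = 0.0397 in limma), with WT levels of -0.38 to 0.13 and cKO levels of -2.47 to -2.04.

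Promoter windows of the called genes were searched for the core letters to which HMG box factors of the Sox family bind, because the called genes moved with a Sox factor. RefSeq windows of GRCm38.p6 (250 bases before to 50 after the start of the gene) were searched for 8 of the 10 called genes, as 9 windows. Windows of a single chromosome were left out before the search, so no count here covers it. Spink12 and Gm4907 had no window among those searched. AACAAAG on either strand was found in 3 of the 9 (33.3%), those of Tead2, Tes and Zfp422. The share was 4.36% of 16088 windows of tested genes and 5.85% of all 32851 windows searched. AACAAT was found in 0 of the 9, against 6.73% and 10.7%. With 9 windows these shares are a description, a match of letters is not a binding site, and the 2 motifs share no match here. The windows of the 3 genes with a match are shown with the match in capitals, and that of Mex3a, the largest decrease after Sox4 among genes above background in both genotypes, is shown without one. Tead2 lies at chr7:45215542-45215841 on the plus strand, Tes at chr6:17064899-17065198 on the plus strand, Zfp422 at chr6:116628652-116628951 on the minus strand and Mex3a at chr3:88531696-88531995 on the plus strand. Each is written from 5′ to 3′ on the strand of its gene, and CTTTGTT is AACAAAG read on the opposite strand.
Tead2: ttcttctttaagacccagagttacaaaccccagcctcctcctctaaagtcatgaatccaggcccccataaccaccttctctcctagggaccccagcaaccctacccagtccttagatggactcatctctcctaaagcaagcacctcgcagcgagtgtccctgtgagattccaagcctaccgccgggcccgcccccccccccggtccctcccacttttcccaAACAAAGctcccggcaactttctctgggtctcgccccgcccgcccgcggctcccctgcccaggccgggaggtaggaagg
Tes: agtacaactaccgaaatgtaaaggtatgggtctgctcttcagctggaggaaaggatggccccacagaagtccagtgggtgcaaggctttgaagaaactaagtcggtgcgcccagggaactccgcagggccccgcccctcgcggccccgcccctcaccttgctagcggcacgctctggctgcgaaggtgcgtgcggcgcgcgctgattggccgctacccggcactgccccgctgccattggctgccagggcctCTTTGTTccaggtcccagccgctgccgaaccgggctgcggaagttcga
Zfp422: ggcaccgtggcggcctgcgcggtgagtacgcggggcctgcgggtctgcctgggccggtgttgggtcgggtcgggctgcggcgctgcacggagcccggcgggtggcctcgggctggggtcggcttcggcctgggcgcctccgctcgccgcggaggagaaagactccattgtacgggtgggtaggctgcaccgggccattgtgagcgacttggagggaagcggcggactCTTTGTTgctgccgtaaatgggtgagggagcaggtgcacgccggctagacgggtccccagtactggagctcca
Mex3a: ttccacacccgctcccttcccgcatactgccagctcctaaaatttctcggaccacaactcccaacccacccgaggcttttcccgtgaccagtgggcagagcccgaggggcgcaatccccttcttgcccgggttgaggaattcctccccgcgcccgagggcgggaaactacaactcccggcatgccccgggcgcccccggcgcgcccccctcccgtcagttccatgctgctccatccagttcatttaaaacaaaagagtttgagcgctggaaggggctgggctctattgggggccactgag
The Tead2 match lies on the strand of the gene, and those of Tes and Zfp422 lie on the opposite strand.

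Just outside the threshold, 10 genes had an adjusted p between 0.05 and 0.1 in limma, 9 with a negative and 1 with a positive difference. Those named next from this set, other than Sp5, H2bc1 and Cd163l1, were picked after their values were seen. Cck, which encodes the peptide cholecystokinin, was at -0.89, -0.58 and -1.28 in WT and at -2.60, -2.25 and -2.25 in cKO mice, a difference of -1.45 (SE 0.22, adjusted p = 0.0649 in limma). Sp5, a transcription factor and direct target of Wnt signalling, was at -1.80, -1.43 and -1.61 in WT and at -3.16, -3.27 and -2.65 in cKO mice, a difference of -1.41 (SE 0.22, adjusted p = 0.0764). Neither gene overlapped between genotypes, and neither counts as changed by the threshold used. On the higher side, Cd163l1, a scavenger receptor of the CD163 family, was at -2.98, -3.02 and -2.95 in WT and at -1.53, -2.27 and -1.46 in cKO mice, a difference of 1.23 (SE 0.20, adjusted p = 0.0764). The next smallest p-values on that side belonged to Lyve1, a hyaluronan receptor of lymphatic vessels and some macrophages (0.95, adjusted p = 0.176), Epha7, an ephrin receptor (0.86, adjusted p = 0.333), and Rhox2c, a homeobox gene (adjusted p = 0.333, at least 1.46-fold and not well above background in WT).

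The called genes were then looked up in the older mice, which are other animals but share slides and the estimate of spread. All 10 had the same sign in Exp 1, and 9 of them did so at an unadjusted p under 0.05, where 7.05% of all genes were lower and 4.26% higher at that level. Among the 10 are Sox4, the targeted gene, and Spink12, which passed the filter only through WT mice, so their agreement adds no support. In Exp 1, 19 genes were called (0.117%), 17 lower (0.105%) and 2 higher (0.0124%). The 5 called in both, Sox4, Mex3a, Plppr3, Tead2 and Zfp422, were 50% of the Exp 2 calls and 26.3% of the Exp 1 calls. Side by side, the differences in younger and older mice were -2.39 and -2.86 for Mex3a, -1.10 and -1.36 for Tead2, -0.97 and -0.95 for Zfp422, and -1.83 and -1.37 for Tes. The exception was Timd4, at 0.09 in Exp 1 (unadjusted p = 0.718 in limma), where it was not well above background in any mouse. The difference between its experiments, 1.78 (SE 0.34), did not pass over all genes (adjusted p = 0.9997 in limma). Of the 19 Exp 1 calls, 18 had the same sign in younger mice.

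**Figure D2:**
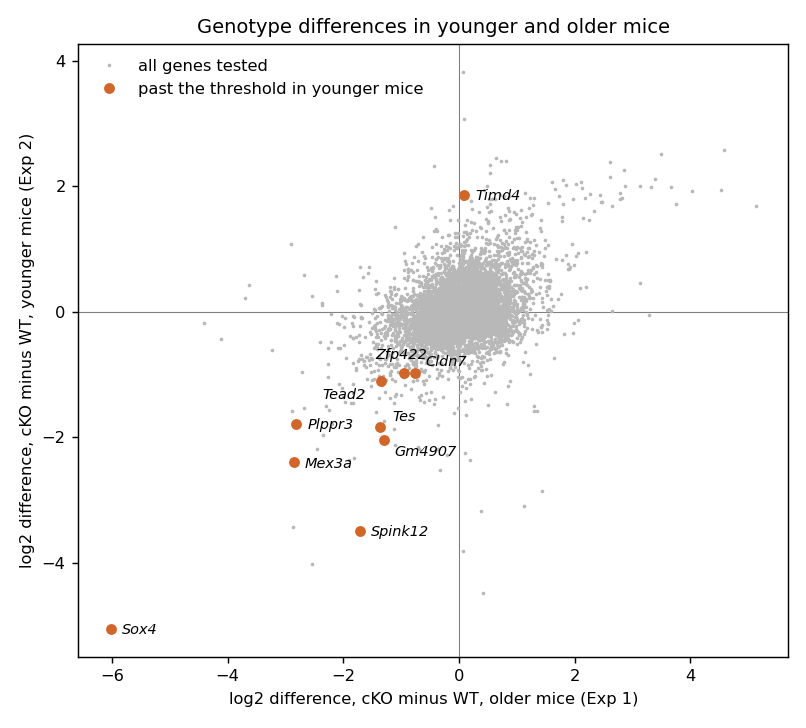
Log2 differences (cKO minus WT) of 16179 genes in older mice (Exp 1, horizontal axis) and younger mice (Exp 2, vertical axis), with the 10 genes past the threshold in younger mice as large labelled points. The 9 lower genes lie to the lower left in both experiments, and Timd4 lies at 1.87 in younger and 0.09 in older mice.

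Whether the difference between genotypes itself differed with experiment was tested as an interaction, in which age and experiment cannot be told apart. Limma called 1 gene (0.00618%), 4930550L24Rik, and 511 (3.16%) had an unadjusted p under 0.05, 353 of them negative (2.18%) and 158 positive (0.977%). This gene was not well above background in any of the 6 younger mice, so no difference was measured there. In older mice it was at least 5.83-fold lower in cKO. It was well above background in the 3 older WT mice and on no other array, so it entered the test only through the group in which it is high, and its call is no evidence that the genotype difference changed with age. The interaction had 0 calls without older WT mouse 3, WT mouse 4, cKO mouse 3 or cKO mouse 4, with 367 to 441 genes at an unadjusted p under 0.05 in limma, and 2 calls without older WT mouse 1 or older cKO mouse 2. Besides Timd4, the smallest p-values for an Exp 2 difference above that of Exp 1 belonged to Heg1, Gpr85, Olfr173 and Tal2, of which Gpr85 and Olfr173 were not well above background in any younger mouse. For an Exp 2 difference below it they belonged to Pcdh20, Trpc4, Eml5, Rpp25 and Adra2c. None of these passed (adjusted p = 0.9997 in limma for each).

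Gene lists around Sox4 were described by their counts and medians. The lists were chosen with the called genes known, so that 5 of 41 hold a called member follows from how they were made. Among SoxC factors and genes reported as targets of Sox4, 7 of 10 tested genes were negative with a median of -0.19, and Sox4 and Tead2 were called. Sox12, another SoxC gene, was at 0.19, and Sox11 did not pass the filter on dim probes. Ezh2, the histone methyltransferase of Polycomb repressive complex 2, was at 1.35, 1.47 and 1.08 in WT and at 1.00, 0.99 and 1.06 in cKO mice (-0.29, SE 0.13, adjusted p = 0.977 in limma). Its lowest WT and highest cKO mice nearly touched. Of 14 Hippo pathway genes only Tead2 was called, and the list median was -0.03. The other TEAD factors were at 0.08 (Tead1), -0.09 (Tead3) and -0.03 (Tead4), the coactivators at -0.13 (Yap1) and -0.02 (Wwtr1), and the pathway outputs at 0.26 (Ccn1) and 0.00 (Ccn2). Of 8 tested genes for Mex3 and related RNA-binding proteins only Mex3a was called (list median -0.07), with its family members at -0.43 (Mex3b), -0.05 (Mex3c) and -0.19 (Mex3d).

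Genes of kallikreins and Spink inhibitors, and genes best known from neurons, each held 1 called member. Kallikreins are serine proteases that loosen contacts between shed skin cells, and Spink proteins inhibit them. Of 12 tested, 8 were negative with a median of -0.07, and Spink12 was called. Klk15 was at -1.50, -1.42 and -2.11 in WT mice and at -5.83, -4.86 and -6.38 in cKO mice, where it was not well above background in any mouse, and it did not pass (adjusted p = 0.176 in limma). Spink5, the main inhibitor of epidermal kallikreins, was at 0.13. Of 20 neural-type genes, 11 were negative with a median of -0.00, and Plppr3 was called. Slc5a7, the choline transporter, was well above background in all 3 WT mice and in no cKO mouse (adjusted p = 0.176). Grp, a bombesin-like peptide, was at -2.73, -2.59 and -3.36 in WT and at -4.65, -4.27 and -4.48 in cKO mice, a difference of -1.57 (SE 0.29, adjusted p = 0.161). No Grp level overlapped between genotypes.

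Actin and microtubule regulators were negative throughout, though none was called. Of 25 tested, 25 were negative with a median of -0.29, against -0.06 over all genes. At an unadjusted p under 0.05, 11 were lower (3.36% of all genes), and in 14 the mice did not overlap with cKO lower (9.88% of all genes). Evl, Marcksl1, Tmsb10 and Stmn1 entered this list with their decrease in these data known, so their direction is no support. Without them, 21 of 21 were negative with a median of -0.24, 7 were lower at that p and 10 did not overlap. Evl, which promotes actin filament elongation, was at 4.01, 4.2 and 3.90 in WT and at 2.76, 2.70 and 2.89 in cKO mice, a difference of -1.25 (SE 0.24, adjusted p = 0.176 in limma). Dbn1, the actin-binding protein drebrin, was at 1.24, 1.39 and 1.20 in WT and at 0.18, 0.26 and 0.18 in cKO mice, a difference of -1.07 (SE 0.21, adjusted p = 0.201). Both genes separated the genotypes without overlap. Tmsb10, an actin monomer-binding thymosin, was at -0.68 (adjusted p = 0.239), and Marcksl1, a membrane and actin-binding protein, was at -0.98 (adjusted p = 0.255). The mean level of the list was 2.44, 2.54 and 2.38 in WT mice 4, 5 and 6 and 1.99, 2.06 and 2.14 in cKO mice 1, 3 and 4. These means and the medians that follow include Evl, Marcksl1, Tmsb10 and Stmn1, so they are partly fixed by that choice. Its median was -0.55 within slide 1 and -0.23 within slide 2, against -0.15 and 0.00 over all genes. In older mice it was -0.32, against -0.02 over all genes.

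**Figure D3:**
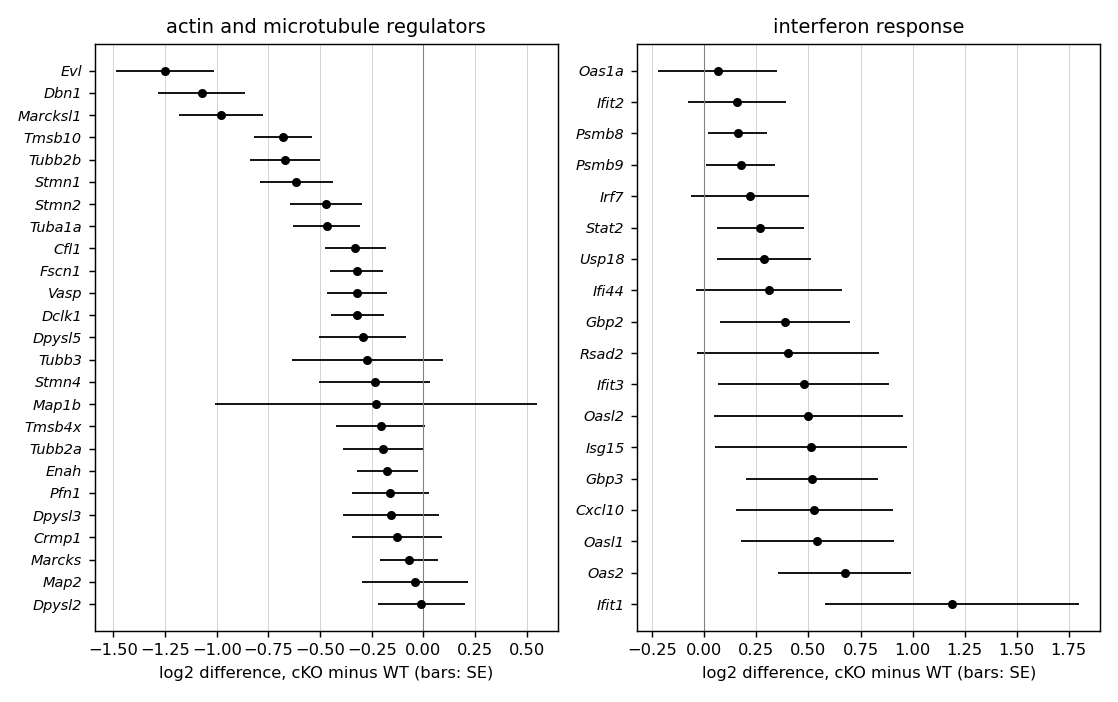
Log2 difference (cKO minus WT, younger mice) of tested genes of 2 lists, actin and microtubule regulators (left) and interferon response (right), with bars of 1 SE and 1 interferon gene not drawn. All 25 genes on the left lie below 0 and all those drawn on the right above 0, and most bars on the right are wide relative to the difference.

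Cell division genes were mostly negative by small amounts in the younger mice. Of 28 DNA replication genes, 26 were negative with a median of -0.22, and Mcm7, a subunit of the replicative helicase, was at 3.63, 3.84 and 3.46 in WT and at 3.08, 3.10 and 3.20 in cKO mice (-0.52, SE 0.16, adjusted p = 0.761 in limma). Of 24 mitosis genes, 23 were negative with a median of -0.13, with Tpx2, a spindle assembly factor, at -0.38 and Mki67 at 0.01. No member of either list was called, and for both lists the mean levels of the mice overlapped between genotypes. Without WT mouse 5, the mouse low in muscle RNA, the mitosis median was -0.04 and the replication median -0.12 (-0.04 over all genes). Within slide 1, which holds that mouse, the mitosis and replication medians were -0.40 and -0.45 (-0.15 over all genes). Within slide 2 they were -0.07 and -0.01 (0.00 over all genes). In older mice these medians were -0.59 and -0.45, and the differences between the experiments were not tested as lists. Of 16 genes for cyclins, cyclin-dependent kinases and Polycomb proteins, 15 were negative with a median of -0.12. Cdk4, a kinase that drives entry into the cycle, was at 5.47, 5.59 and 5.20 in WT and at 4.66, 4.92 and 4.88 in cKO mice (-0.60, SE 0.15, adjusted p = 0.495), and its groups did not overlap. Among 12 inhibitors and senescence genes, 10 were negative (median -0.23). In contrast to replication and mitosis, the mean levels of these 2 lists did not overlap, at 1.71 to 1.80 in WT and 1.60 to 1.64 in cKO mice for the former and at 1.77 to 2.09 and 1.48 to 1.57 for the latter. Cdkn2a, the Ink4a/Arf locus, varied widely among WT mice, at -2.98, 0.35 and -0.96, and was at -3.51, -3.75 and -3.39 in cKO mice (-2.35, SE 0.69, adjusted p = 0.704).

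No list of genes that build the hair held a called gene in the younger mice. Of 14 hair shaft keratins, 10 were negative with a median of -0.13 and none was called. Krt84, a keratin of the hair cuticle, was on the positive side, at 4.56, 5.20 and 4.92 in WT and at 5.44, 5.82 and 5.86 in cKO mice (0.81, SE 0.37, adjusted p = 0.977 in limma). In 50 keratin-associated proteins, which cross-link shaft keratins and whose similar sequences can share probes, 38 were positive with a median of 0.05. That median was -0.09 with median scaling, and the shaft keratin median was 0.01 with quantile normalization, so neither list has a settled direction. Inner root sheath genes had a median of -0.11 (10 of 12 negative), and matrix and shaft regulators one of -0.17 (15 of 18 negative). Shh, the signal of the growing follicle, was at -1.82, -1.60 and -1.93 in WT and at -2.34, -2.47 and -2.72 in cKO mice (-0.72, SE 0.68, adjusted p = 0.977). Its 95% interval of -2.24 to 0.79 spans 0. Follicle stem cell and bulge genes had a median of -0.07 (12 of 15 negative), and their marker Krt15 was at 7.04, 7.11 and 6.75 in WT and at 6.28, 6.52 and 6.74 in cKO mice (-0.45, SE 0.19, adjusted p = 0.977). The median of 19 dermal papilla genes was -0.09, with Crabp1 at -0.54 (adjusted p = 0.976), and in older mice it was -0.54. Medians of Wnt targets (-0.06), Notch pathway (-0.00) and hair cycle arrest signals (-0.10) were close to that of all genes, and their mice overlapped. The BMP and TGF-beta pathway had a median of -0.12, with 15 of 20 negative (64% of all genes). Its mean levels did not overlap, at 1.60 to 1.64 in WT and 1.37 to 1.54 in cKO mice. None of these lists had a called member.

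**Figure D4:**
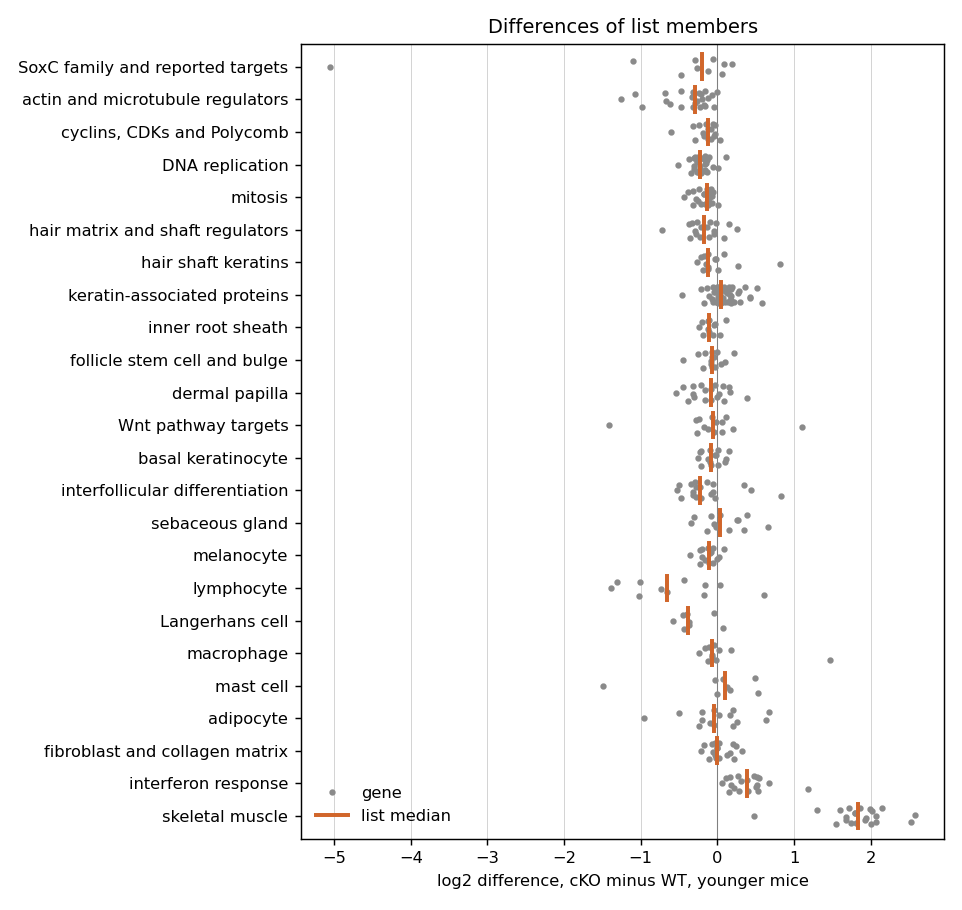
Log2 differences (cKO minus WT, younger mice) of the tested genes of 24 lists, 1 grey point per gene, with each list's median as a vertical bar. Most medians lie near that of all genes, -0.06, while those of lymphocyte (-0.66), Langerhans cell (-0.39), interferon response (0.39) and skeletal muscle genes (1.83) lie farther out, and Sox4 is the point at -5.05.

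Epidermal lists also held no called member apart from Spink12. Interfollicular differentiation genes had a median of -0.22 in younger mice (16 of 19 negative), with Lor, the cornified envelope protein loricrin, at -0.31, but Ivl (involucrin) at 0.35 and Rptn (repetin) at 0.83. Rptn was at 0.37, -0.31 and 0.14 in WT and at 1.15, 0.95 and 0.60 in cKO mice (SE 0.32, adjusted p = 0.976 in limma), without overlap. In older mice the same list had a median of 0.60 with 19 of 19 positive. Basal keratinocyte genes had a median of -0.08 (Krt14 -0.22, Itgb1 -0.25), the companion layer and stress list one of -0.10, and the sebaceous gland list one of 0.04. For melanocyte genes, which mark pigment cells, 13 of 15 were negative and the median was -0.10, against -1.45 in older mice. The interaction was called for none of these genes.

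Most T cell genes lay on the negative side in cKO skin, without a call. Of 11 lymphocyte markers tested, 9 were negative (64% of all genes) with a median of -0.66, and 6 were lower at an unadjusted p under 0.05 (3.36% of all genes), while Cd247, Cd8a and Ms4a1 did not pass the filter. Cd3g, a chain of the T cell receptor complex, was at -1.19, -1.12 and -1.16 in WT and at -2.47, -2.66 and -2.51 in cKO mice, a difference of -1.39 (SE 0.31, adjusted p = 0.363 in limma). Il2rb, a chain of the interleukin 2 and 15 receptors, was at -2.71, -2.59 and -2.91 in WT and at -3.85, -3.61 and -3.79 in cKO mice, a difference of -1.01 (SE 0.23, adjusted p = 0.378). In both genes the WT mice stood together above the cKO mice. Cd3d was at -1.02 and the T cell kinase Zap70 at -0.66, whereas the B cell marker Cd79a was at 0.61 and Cd4 at 0.03. The mean level of the list was -1.54, -1.36 and -1.59 in WT mice and -2.21, -1.97 and -2.02 in cKO mice, so the genotypes did not overlap. Its median was -0.74 within slide 1 and -0.37 within slide 2, against -0.15 and 0.00 over all genes. In older mice it was -0.30, against -0.02 over all genes, and the mice overlapped.

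Genes of the Langerhans cell list, which holds class II antigen presentation genes beside Cd207, Epcam and Mfge8, lay mostly on the negative side too, without a call. Of 8 tested, 7 were negative with a median of -0.39, and 5 were lower at an unadjusted p under 0.05 (3.36% of all genes). Epcam was at 1.94, 2.17 and 1.95 in WT and at 1.53, 1.43 and 1.35 in cKO mice (-0.58, SE 0.18, adjusted p = 0.768 in limma). H2-Eb1, a class II antigen-presenting chain, was at 6.52, 6.38 and 6.37 in WT and at 5.86, 6.15 and 5.93 in cKO mice (-0.44, SE 0.14, adjusted p = 0.816). Neither gene overlapped between genotypes, but Cd207, the defining marker of Langerhans cells, was at -0.04. The list median was 0.12 in older mice, and it was 0.25 in the authors' deposited table with its column for cKO mouse 1, which differs from that mouse's array. Macrophage genes, read beside Timd4, had a median of -0.07 (8 of 11 negative), with mean levels of 0.89 to 1.06 in WT and 0.78 to 1.16 in cKO mice. Cd163 was the macrophage gene at the largest distance, 1.46 (SE 0.60, adjusted p = 0.976). Medians of mast cell (0.11) and neutrophil genes (0.15) were also small, and their mice overlapped.

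Interferon response genes were positive in the younger cKO mice without any reaching an unadjusted p under 0.05. Of 19 tested, 19 were positive with a median of 0.39, against 36% positive over all genes, and in 5 the mice did not overlap with cKO higher (2.71% of all genes). Ifit1, an antiviral RNA-binding protein, was at -4.06, -3.87 and -3.05 in WT and at -2.33, -2.81 and -2.28 in cKO mice (1.19, SE 0.61, adjusted p = 0.977 in limma). Oas2, an RNA sensor, was at 0.67 and Isg15 at 0.51. The mean level of the list was -0.91, -0.69 and -0.50 in WT mice 4, 5 and 6 and -0.18, -0.46 and -0.27 in cKO mice 1, 3 and 4. The genotypes were adjacent but did not overlap, with WT mouse 6 nearest to the cKO mice. The median was 0.39 within slide 1, 0.37 within slide 2 and 0.22 with the muscle list as a covariate.

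Of the 41 lists, skeletal muscle genes had the largest median, 1.83, with 22 of 22 positive and none called. Their mean level was 4.38, -1.13 and 5.26 in WT mice 4, 5 and 6 and 5.36, 4.13 and 4.51 in cKO mice 1, 3 and 4, so WT mouse 5 alone stood apart and the genotypes overlapped. Myh2, a muscle myosin, shows the same layout, at 2.79, -0.61 and 4.06 in WT and at 5.02, 3.51 and 5.28 in cKO mice. Without WT mouse 5 the median was -0.23. Within slide 1, where WT mouse 5 is the single younger WT mouse, it was 6.58, and within slide 2 it was -0.43. All 10 called genes kept their direction with the muscle list as a covariate, but only 3 of them, Sox4, Mex3a and Spink12, were still called in that fit, which called 4 genes in all. Lists of other skin components were close to all genes, at -0.04 for adipocytes, -0.00 for fibroblasts and collagen matrix, -0.03 for endothelium, -0.06 for smooth muscle and pericytes, 0.04 for peripheral nerve and 0.16 for red blood cells.

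**Figure D5:**
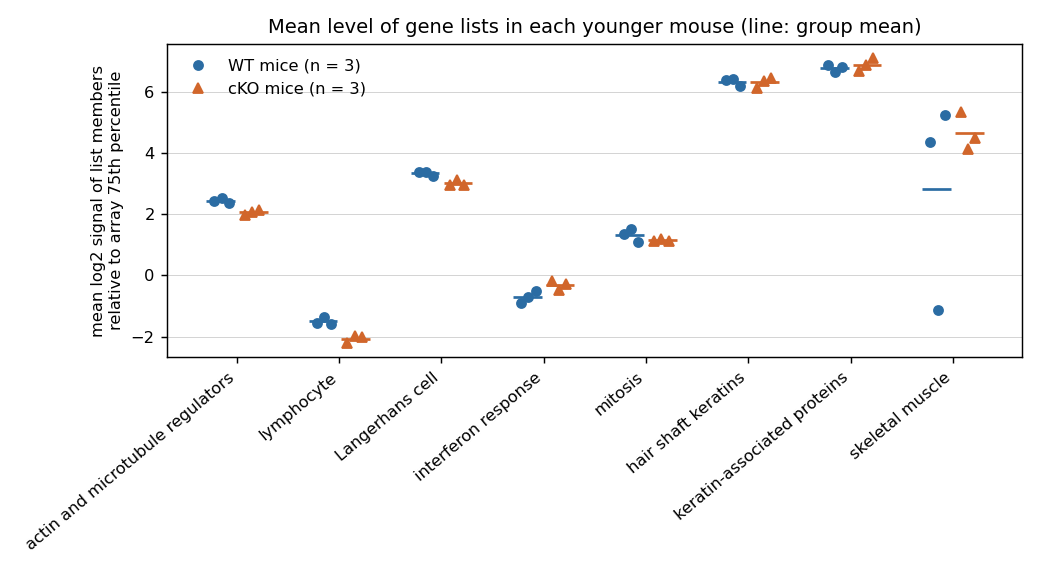
Mean log2 signal relative to the array's 75th percentile (vertical axis) of the tested genes of 8 lists in each younger mouse, with circles for WT, triangles for cKO (n = 3 each) and a line at each group mean. The genotypes do not overlap for actin and microtubule regulators, lymphocyte, Langerhans cell and interferon response genes. The actin list includes members chosen with their decrease known. WT mouse 5 lies at -1.13 for skeletal muscle. Such separation is not particular to these lists. Among lists not drawn, it also holds for the Hippo (median -0.03), Mex3 (-0.07) and kallikrein and Spink lists (-0.07), each with a called member.

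Genes on either side of Sox4 on its chromosome were examined because a deletion can alter its neighbours. Of the 20 tested genes on each side in RefSeq order, 21 of 40 were negative with a median of -0.02, and none was called. H2bc1, a histone gene whose probe may read near-identical copies, came nearest, at 2.86, 3.02 and 2.62 in WT and at 1.97, 1.83 and 1.81 in cKO mice (-0.96, SE 0.14, adjusted p = 0.0649 in limma). Its genotypes did not overlap. Serpinb6e was at 1.43 (SE 0.53, adjusted p = 0.958), a serine protease inhibitor gene of a cluster of similar sequences. The list spanned -1.05 to 1.43.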

How the data were processed

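Plucked skin of 12 male mice was profiled on 12 Agilent arrays of 1 colour, 1 mouse each. Per the labels' protocols, RNA was extracted with Trizol and a QIAGEN kit, had RNA integrity numbers of 6.5 to 8.5, was amplified with T7 polymerase and was labelled with Cy3. The deposited scanner intensity values were written, per the file headers, by Feature Extraction 11.5.1.1, with background already subtracted from the processed signal. The authors' deposited value table holds log2 values normalized by a method not given in the sources used here (limma is named in the submitters' processing notes), and it served as an alternative only. In it, the column of cKO mouse 1 correlated at 0.263 with that mouse's own array over probe deviations, against 0.697 to 0.81 for the other mice, so the scanner file was used.

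Processed signals were set to log2 minus each array's 75th percentile. Array 75th percentiles were 364 to 554. Control spots and outlier-flagged spots were left out (90 missing values). Of 55681 probes, 27503 carried a gene name. A probe was kept if well above background on at least 3 of 12 arrays (35375 probes), and each gene was read by its kept probe of highest mean (16179 genes, 4128 with several). Limma 3.58.1 in R 4.3.3 fitted 4 group means (genotype by experiment) to all 12 arrays, with Benjamini-Hochberg adjustment over all genes and a threshold of 0.05. The residual degrees of freedom were 8. The "at least" folds set the bright group against the dim group's level or the lowest signal well above background. The number of arrays limits the precision. Python 3.11.15 with scipy 1.17.1 ran the exact permutation tests. The fit was tested on simulated data with independent normal noise and no slide, tag or muscle effect, so that test does not cover such effects.

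The genes named were Sox4, the genes called, the 5 smallest p-values in a direction with fewer calls, the 4 members with the smallest p at most in each list, and the 5 smallest p each way for the interaction. Members, lists and rules were chosen with earlier results of these data known. Family members, markers and pathway outputs named beyond this rule were chosen after their values were seen. Alternatives were other scaling, filters, probe rules, slide, tag and muscle terms, the value table, and leaving out each mouse. Single values of some list members are not reported here.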

Additional observations from a re-analysis of the deposited data

Results flagged for a closer look

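The difference between genotypes was called as differing between the experiments for 1 gene, by the interaction in limma, but the values allow only bounds. 4930550L24Rik, which carries only an identifier, had a fitted Exp 2 difference 4.23 above that of Exp 1 (SE 0.39, adjusted p = 0.00985 in limma, 0.00618% of genes called). It was well above background in the 3 older WT mice, at -2.23 on average, and on no other array, so it entered the test only through the group in which it is high. In older cKO mice it was at least 5.83-fold lower. In younger mice neither genotype was above background, so no difference was measured there, and the fitted value is no measured change between experiments. Age and experiment cannot be told apart in this test.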

How the results depend on the processing

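No paired analysis was possible because the labels name no pairs, and mice are numbered separately within each genotype. Against 10 calls in younger mice, limma called 6 with median scaling, 3 with no filter on dim probes, 5 with every kept probe tested, 4 with Exp 2 arrays only, 6 with slide as a block, 79 within slide 1, 2 with a term for the array-name tag, 4 with the skeletal muscle covariate, 3 in the authors' value table and 4 in that table without its column for cKO mouse 1. Leaving out each mouse gave 2 to 21. Within slide 1 the fit has 2 residual degrees of freedom, and within slide 2 it has 1. Slide 1 holds a single younger mouse of each genotype, and slide 2 a single younger cKO mouse. Calls moved widely within slide 1, where WT mouse 5 is the younger WT mouse and most calls were higher in cKO. Counts of calls from the within-slide fits are therefore listed only to show how far counts move, and no conclusion is drawn from them. Of the younger calls, those with the same sign and an unadjusted p under 0.05 in older mice were 9, and became 5 with median scaling, 3 with no filter, 5 with every probe, 5 with slide as a block, 32 within slide 1, 5 within slide 2, 2 with the tag, 4 with the muscle covariate, 3 and 4 in the value table with and without that column, and 2 to 20 without single mice. The 1 interaction call became 0 with the stricter filter, slide as a block, the trended robust prior and the value table with or without that column, with 488, 425, 502, 194 and 476 genes at an unadjusted p under 0.05 in limma. It became 7 within slide 1, 392 within slide 2 and 0 to 2 without single mice. Exp 2 arrays alone give no interaction and no look-up. All 10 called genes kept their sign in all 28 alternatives. Leaving out single mice, fitting within a slide and using Exp 2 arrays only could not have changed it. Leaving out an older mouse also cannot move a list median of the younger mice. Of 41 list medians, 12 kept their sign in all 28, and 29 changed sign in at least 1. Among the 12 were actin and microtubule regulators (-0.55 to -0.17), lymphocyte genes (-0.80 to -0.28) and interferon response genes (0.22 to 0.71). The others were the SoxC, DNA replication, mitosis, cyclin and Polycomb, and cell cycle inhibitor lists. To these came the BMP and TGF-beta, dermal papilla (-0.24 to -0.01), kallikrein and Spink, and companion layer lists. A kept sign was thus not particular to lists with large medians. Probes near background are limited to bounds.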

Other observations

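The 5 genes that follow were picked after their values were seen and for being low in cKO mice, so their shared direction is fixed by that choice. Cd7, a surface protein of T and natural killer cells, was at -0.12, -0.18 and -0.51 in WT mice 4, 5 and 6 and at -1.72, -1.38 and -1.40 in cKO mice 1, 3 and 4 (-1.23, SE 0.20, adjusted p = 0.0819 in limma). Klrd1, a natural killer cell receptor chain, was at -2.65, -2.50 and -2.62 in WT and at -3.84, -4.20 and -3.62 in cKO mice (-1.30, adjusted p = 0.336). Lag3, an inhibitory receptor of activated T cells, was at -1.40 (adjusted p = 0.23), and Klra8, another natural killer cell receptor, was not well above background in any cKO mouse (adjusted p = 0.176, at least 2.29-fold). In none of these 4 genes did the genotypes overlap, and none passed the threshold.

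Nrg1, which encodes the growth factor neuregulin 1, was at 0.83, 0.97 and 0.53 in WT and at -0.28, -0.95 and -0.39 in cKO mice (-1.32, adjusted p = 0.176 in limma), also without overlap.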
